A study of Homo sapiens with 4 samples.

Results

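The expression of 36 autophagy genes was compared between the pancreatic ductal adenocarcinoma cell line PANC-1 and PZT-2, a clone derived from it in which the histone variant H2A.Z was knocked down. The genes were selected by symbol, from a list of the core autophagy machinery and its cargo receptors that was chosen with earlier results of these data known. All 36 had counts among the 15222 genes of the deposited tables. RNA-seq of poly(A)-enriched RNA was available for 4 libraries, 2 of wild type PANC-1 and 2 of PZT-2, read from both ends over 76 bases. Both lines were grown in DMEM with 10% FBS and collected at passages 12 to 13. The study made PZT-2 by transducing PANC-1 with lentiviral shRNAs against H2A.Z.1 (gene H2AFZ) and H2A.Z.2 (gene H2AFV, whose transcript is spliced into 2 isoforms), followed by puromycin selection. PZT-2 is 1 clone and the PANC-1 cells were not transduced, so the effects of the knockdown, of transduction and selection, and of cloning cannot be told apart here. Libraries of a scrambled shRNA control were not analysed here.

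Autophagy encloses cytoplasm in a double membrane, the autophagosome, and delivers it to the lysosome for breakdown. A kinase complex around ULK1 starts the process, a phosphatidylinositol 3-kinase complex around Beclin 1 marks the site with lipid, ATG9A and the ATG2 proteins supply membrane, and ubiquitin-like conjugation attaches proteins of the LC3 and GABARAP family to it. Cargo receptors such as p62 bind both these proteins and the cargo. Pancreatic ductal adenocarcinoma is known for high basal autophagy, much of which is regulated at the protein level and is not read by RNA-seq.

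Of the 36 genes, 7 were higher and 2 were lower in PZT-2 at an adjusted p under 0.05, and 27 did not pass the test. The genes that rose were PIK3R4, ATG3, ATG7, ATG16L1, MAP1LC3A, GABARAPL1 and TAX1BP1, and those that fell were GABARAP and CALCOCO2. The share called was 25%, beside 28.4% of the 15102 genes tested (14.7% higher and 13.7% lower), so the share of autophagy genes called was near that of all genes. All genes were tested with the quasi-likelihood method of edgeR, and p-values were adjusted over them by Benjamini-Hochberg. At an unadjusted p under 0.05 there were 14 of the 36, beside 40.6% of all genes, and DESeq2 called 4 higher and 2 lower, beside 24.1% of the genes it tested. The changes were small. The median size of the log2 fold change was 0.18 among the autophagy genes and 0.28 among all genes, and GABARAPL1 alone exceeded 2-fold, which 9.20% of all genes did. Of the 9 called genes, 8 changed by less than 0.5 on the log2 scale. The fold change was positive for 21 of the 36 (58.3%), beside 50.1% of all genes, with a median log2 fold change of 0.08 beside 0.00 (0.000898). The libraries of the 2 lines did not overlap for 23 of the 36 genes (63.9%), beside 66.3% of all genes.

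**Figure D1:**
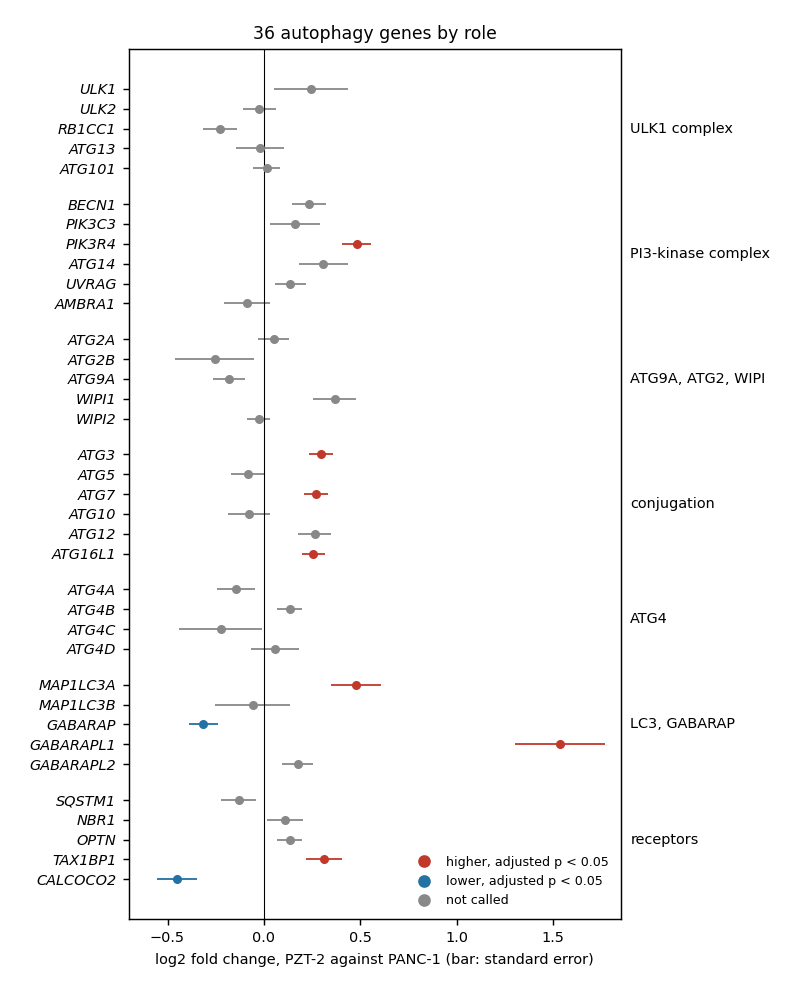
Log2 fold change of PZT-2 against PANC-1 (horizontal axis) for the 36 autophagy genes, grouped by role, with bars of 1 standard error; red and blue points passed an adjusted p of 0.05. GABARAPL1 stands at 1.54, while the other 35 genes lie between -0.45 and 0.48.

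The libraries held between 12861114 and 15717657 counts. H2AFZ, the gene of H2A.Z.1, fell from 6212 ± 251 to 2235 ± 32.6 normalised counts (SD, n = 2), or by 1.47 on the log2 scale (edgeR adjusted p = 6.1e-05), and H2AFV fell by 0.36 on the log2 scale (adjusted p = 0.00562). All libraries held high levels of the epithelial keratins KRT8, KRT18 and KRT19, from 21322 to 41931 normalised counts in PANC-1 and from 12385 to 18678 in PZT-2. All of them were called lower in PZT-2 by edgeR, at -1.17 (adjusted p = 5.9e-05), -0.81 (adjusted p = 0.000196) and -0.73 (adjusted p = 0.000238) on the log2 scale, which are larger changes than those of the called autophagy genes other than GABARAPL1. The other ductal epithelial markers were low: KRT7 stood at 104 to 143 and EPCAM at 82.1 to 105, and CDH1 at 116 and 148 in PANC-1 but 0 and 18.8 in PZT-2 (adjusted p = 0.0101). The immune markers PTPRC and CD3E, the endothelial markers VWF and CDH5, the stromal markers DCN and LUM, and all 5 acinar or islet markers had no value in the tables, while CD14 (3.38 and 0 in PANC-1, 16.1 and 31.6 in PZT-2, adjusted p = 0.0233), PECAM1 (4.03 to 12.4) and PDGFRB (up to 15.1) were low. COL1A1, the remaining stromal marker, was higher in PANC-1 (494 and 531) than in PZT-2 (170 and 135, adjusted p = 0.000454). The part of these markers in the results was not tested. In bulk RNA, fewer cells that express a gene and less RNA per cell cannot be told apart. The study describes the libraries of each line as biological replicates. The labels do not say whether they were separate cultures, so a p-value measures the spread between these libraries.

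None of the 5 genes of the ULK1 complex was called, and their median log2 fold change was -0.02. ULK1, the kinase that initiates autophagy, stood at 2625 and 1652 normalised counts in replicates 1 and 2 of PANC-1 and at 2511 and 2546 in those of PZT-2. PANC-1 replicate 2 was the low library and the lines overlapped in range (log2 fold change 0.25 ± 0.192 SE, adjusted p = 0.391). RB1CC1, which encodes the scaffold FIP200, was the only one of the 5 whose libraries did not overlap, beside 66.3% of all genes tested. It stood at 467 and 471 in PANC-1 and 420 and 381 in PZT-2 (-0.23, adjusted p = 0.103). ULK2, another kinase of this kind, and the adaptors ATG13 and ATG101 had log2 fold changes of -0.02, -0.02 and 0.01, with adjusted p from 0.869 to 0.927.

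In the Beclin 1 complex, 1 of 6 genes rose, beside 14.7% of all genes tested, and the median log2 fold change was 0.20. That gene, PIK3R4, is on chromosome 3, where 48.3% of the tested genes were called higher. PIK3R4, the regulatory subunit VPS15 that anchors the lipid kinase, had 477 and 502 normalised counts in PANC-1 and 698 and 670 in PZT-2. Both PZT-2 libraries were above both PANC-1 libraries by more than the spread within either line, and the change was 0.48 ± 0.0766 on the log2 scale (adjusted p = 0.00564). The call held in each of the 15 alternative analyses. BECN1, the Beclin 1 scaffold, stood at 598 and 554 in PANC-1 and 640 and 714 in PZT-2, and ATG14, which directs the complex to autophagosome formation, at 230 and 211 against 250 and 296. Neither passed the test (0.24, adjusted p = 0.0942 and 0.31, adjusted p = 0.116). Their libraries did not overlap, which held for 66.3% of all genes tested as well. PIK3C3, the catalytic subunit VPS34, and UVRAG, the partner of the later endosomal complex, had values of 0.16 and 0.14, and AMBRA1, a regulator of Beclin 1, -0.09.

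None of the 5 genes that supply and bind the growing membrane was called. ATG9A, the transmembrane scramblase that travels in vesicles, stood at 1924 and 1656 normalised counts in PANC-1 and 1610 and 1549 in PZT-2 (-0.18 on the log2 scale, adjusted p = 0.163). WIPI1, which binds phosphatidylinositol 3-phosphate, came nearest to the threshold, at 183 and 173 against 224 and 234. Its libraries did not overlap, like those of 66.3% of all genes tested, and its change was 0.37 ± 0.112 on the log2 scale (adjusted p = 0.0515). The lipid transfer proteins ATG2A and ATG2B had log2 fold changes of 0.05 and -0.26, and WIPI2, which recruits ATG16L1, had -0.03. ATG2B was the gene with the lowest level per length, at 0.575 TPM in PANC-1 and 0.476 in PZT-2 (scaled, as deposited).

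Of the 6 conjugation genes, 3 were called higher, beside 14.7% of all genes tested. ATG3 and ATG7 are on chromosome 3, where 48.3% of the tested genes were called higher. ATG7, the E1-like enzyme of both conjugation reactions, had 1276 and 1356 normalised counts in PANC-1 and 1579 and 1594 in PZT-2, a change of 0.27 ± 0.0622 on the log2 scale (adjusted p = 0.0209). It was called in 9 of the 15 alternatives. ATG3, the E2-like enzyme that transfers LC3 and GABARAP proteins to lipid, had 1105 and 1094 against 1315 and 1388, a change of 0.30 ± 0.0626 (adjusted p = 0.0151). ATG16L1, which places the E3-like complex on the membrane, had 1053 and 1065 against 1270 and 1260, a change of 0.26 ± 0.0593 (adjusted p = 0.0212). In all of them the PANC-1 libraries lay close together and below both PZT-2 libraries. ATG12, the ubiquitin-like protein of that complex, showed a value of like size, at 477 and 455 against 534 and 583 (0.26, adjusted p = 0.0628), and did not pass. ATG5, to which ATG12 is joined, and ATG10, the E2-like enzyme that joins them, stood at -0.08 each with adjusted p of 0.513 and 0.636.

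The ATG4 proteases trim LC3 and GABARAP proteins before conjugation and release them afterwards. None of the 4 was called. ATG4B, the most active of them, stood at 1074 and 1055 normalised counts in PANC-1 and 1134 and 1199 in PZT-2 (0.13 on the log2 scale, adjusted p = 0.173). ATG4A had -0.14, ATG4C -0.22 and ATG4D 0.06, with adjusted p from 0.338 to 0.772.

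**Figure D2:**
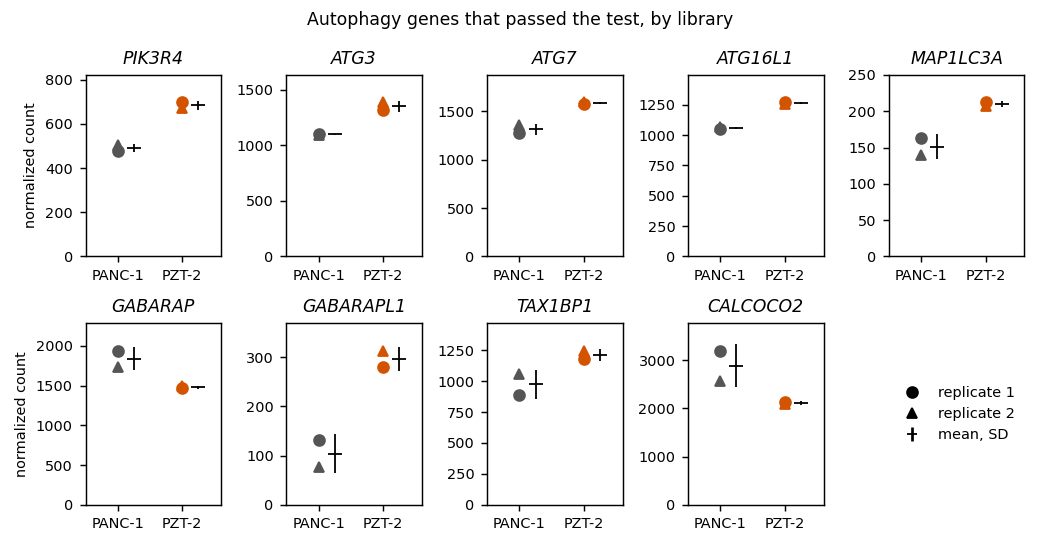
Normalised counts (vertical axis, from 0) of the 9 autophagy genes that passed the test, in each PANC-1 and PZT-2 library; circles are replicate 1, triangles replicate 2, and crosses the mean with SD. The PZT-2 libraries lie outside the PANC-1 range in every panel, and relative to the PANC-1 mean the change is largest for GABARAPL1 (280 and 313 against 132 and 75.9).

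The LC3 and GABARAP family, the proteins that conjugation attaches to the membrane, held both the largest rise and a fall. GABARAPL1 (RefSeq transcript NM_031412 in the files, on chromosome 12) stood at 132 and 75.9 normalised counts in PANC-1 and 280 and 313 in PZT-2. Both PZT-2 libraries were above both PANC-1 libraries, although the PANC-1 pair was far apart. The log2 fold change was 1.54 ± 0.234, or 2.90-fold (adjusted p = 0.00481). It was called in each of the 15 alternatives, but its size rested on which PANC-1 library was used, with 1.96 without replicate 1 and 1.16 without replicate 2. MAP1LC3A, an LC3 gene, had 163 and 139 against 212 and 207, a change of 0.48 ± 0.130 (adjusted p = 0.0362), which was not called without PANC-1 replicate 2 (0.35, adjusted p = 0.121). GABARAP fell from 1941 and 1735 to 1467 and 1489, by 0.31 on the log2 scale (SE 0.0726, adjusted p = 0.0212). GABARAPL2 stood at 688 and 632 against 763 and 724 (0.17, adjusted p = 0.150). MAP1LC3B, the LC3 gene usually followed as an autophagosome marker, stood at 2265 and 1420 against 1779 and 1751, with both PZT-2 values between those of PANC-1 (-0.06, adjusted p = 0.864). MAP1LC3B has a near-identical copy, MAP1LC3B2, at 26.2 to 70.9 normalised counts, and the split of reads between them is uncertain.

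Compared per length, the family was led by GABARAP in every library, and the rise of GABARAPL1 started from the lowest level of the 5. GABARAP stood at 310 and 280 TPM in PANC-1 and 234 and 238 in PZT-2, which was 54.6% and 58.8% of the summed TPM of the 5 genes in PANC-1 and 47.7% and 48.6% in PZT-2. GABARAPL1 took 1.61% and 1.15% in PANC-1 and 3.96% and 4.50% in PZT-2. Its TPM was 0.0294 and 0.0196 of that of GABARAP in PANC-1 and 0.0830 and 0.0926 in PZT-2. MAP1LC3A took 3.95% and 4.06% against 5.94% and 5.80%, and GABARAPL2 17.0% and 18.8% against 21.8% and 20.7%. The shares of these 4 genes did not overlap between the lines, while those of MAP1LC3B did, at 22.9% and 17.2% against 20.6% and 20.4%. By normalised counts, the lines did not overlap for 66.3% of all genes tested. The 5 shares sum to 100%, so a lower share of GABARAP leaves more for the others, and GABARAPL2 was not called. The summed TPM of the family was 567 and 476 in PANC-1 and 491 and 489 in PZT-2, so the PZT-2 libraries lay within the PANC-1 range. The shares were given as a description and were not tested. An exact permutation test of 2 against 2 libraries allows no p under 0.333.

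Among the cargo receptors, 1 of 5 rose and 1 fell, beside 14.7% higher and 13.7% lower of all genes tested. CALCOCO2 (NDP52), a receptor for bacteria and mitochondria, fell from 3203 and 2579 normalised counts in PANC-1 to 2144 and 2083 in PZT-2. All PZT-2 values were below those of PANC-1, a change of -0.45 ± 0.103 on the log2 scale (adjusted p = 0.0203) and a range of -0.61 to -0.29 with either PANC-1 library left out. TAX1BP1, its relative, had 891 and 1057 against 1178 and 1248, a change of 0.31 ± 0.0932 (adjusted p = 0.0483) that was called in 7 of 15 alternatives and not without PANC-1 replicate 1 (0.19, adjusted p = 0.0845). SQSTM1, which encodes p62, was the most abundant of the 36 genes per length, at 1282 TPM in PANC-1 and 1161 in PZT-2 on average. Its normalised counts were 31509 and 26022 against 25399 and 27134, overlapping between the lines (-0.13, adjusted p = 0.326). NBR1 and OPTN, receptors for ubiquitinated cargo, had 0.11 and 0.13 and did not pass.

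Several calls rested on both libraries of PZT-2. Without PZT-2 replicate 1 or without PZT-2 replicate 2, PIK3R4 and GABARAPL1 stayed called. The other called genes did not, although their directions were kept. Over all genes, fewer were called in those fits as well. In those fits the lone PZT-2 library is taken to vary as the PANC-1 libraries do. ATG3, for example, had 0.34 (adjusted p = 0.0544) without PZT-2 replicate 1 and 0.26 (adjusted p = 0.126) without PZT-2 replicate 2.

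The PANC-1 replicates were further apart for a few autophagy genes than for most genes. The log2 ratio of replicate 1 to replicate 2 was 0.79 for GABARAPL1, 0.67 for MAP1LC3B and 0.67 for ULK1. These were 3 of 36 genes (8.33%) with a gap over 0.5, beside 2.69% of the 10052 genes with a mean normalised count of at least 100. Replicate 1 of PANC-1 was the higher one for 28 of the 36 genes, beside 50.3% of those 10052 genes. The gap between the PZT-2 replicates did not exceed 0.27 for any of the 36. The fold changes of the genes with wide gaps turned on the PANC-1 library used. ULK1 had 0.61 without PANC-1 replicate 1 and -0.06 without PANC-1 replicate 2, and MAP1LC3B had 0.31 and -0.37. Without PANC-1 replicate 2, SQSTM1 had -0.27 and ATG9A -0.29. In these fits the lone PANC-1 library is taken to vary as the PZT-2 libraries do. Their p-values leave out the gap between the PANC-1 libraries and are not given here.

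Low values in PANC-1 replicate 2 were shared by 4 genes of the stress response that act upstream of autophagy. Other upstream genes had gaps in both directions, with log2 ratios of replicate 1 to replicate 2 of 0.62 for XBP1 and -0.57 for TFEB. SESN2, which encodes the leucine sensor sestrin 2, stood at 1514 and 391 normalised counts in PANC-1 replicates 1 and 2 and at 1438 and 1549 in PZT-2. DDIT4, an inhibitor of mTORC1 signalling, stood at 2913 and 895 against 2608 and 2362. The transcription factors of the integrated stress response ATF4 (3645 and 2206 against 4255 and 4411) and DDIT3 (792 and 412 against 674 and 730) were low in the same library. These 4 were named after their values were seen, and none passed the test between the lines (adjusted p from 0.0850 to 0.572). That result turned on the PANC-1 library used as well, since a fit without replicate 1 keeps only the low PANC-1 library. Such a fit cannot measure the gap between the PANC-1 libraries, so it does not decide whether the lines differ. The part of this gap between the PANC-1 libraries in the results for the autophagy genes was not tested.

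**Figure D3:**
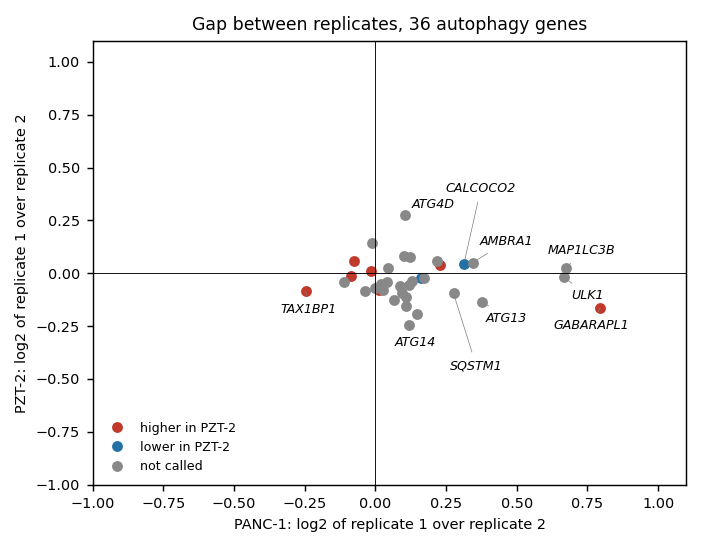
Log2 ratio of replicate 1 to replicate 2 within PANC-1 (horizontal axis) and within PZT-2 (vertical axis) for the 36 autophagy genes, coloured by the call between the lines. The points spread along the PANC-1 axis to 0.79 for GABARAPL1, and no PZT-2 gap exceeds 0.27.

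The 3 autophagy genes on chromosome 3, PIK3R4, ATG3 and ATG7, all rose, and so did many other genes of that chromosome. Of 835 tested genes there, 48.3% were called higher and 2.51% lower, with a median log2 fold change of 0.43. The 20 tested genes nearest to each had median log2 fold changes of 0.38 for PIK3R4, 0.33 for ATG3 and 0.46 for ATG7, with 9, 8 and 13 of the 20 called higher. The log2 fold changes of the genes themselves (0.48, 0.30 and 0.27) differed from these medians by 0.10, -0.03 and -0.20. DNA copy number was not measured in these data and its part was not tested. Of the 33 autophagy genes on other chromosomes, 4 were called higher and 2 lower, beside 12.8% higher and 14.3% lower of the genes off chromosome 3. The neighbours of GABARAPL1 had a median of -0.10, those of CALCOCO2 0.07, those of MAP1LC3A -0.02, those of ATG16L1 -0.04 and those of TAX1BP1 0.04. GABARAP on chromosome 17 lay among genes with a median of -0.20, of which 7 of 20 were called lower. ATG4A, the only one of the 36 on the X chromosome, stood at -0.14 while its neighbours had a median of -0.57 and the 474 genes of that chromosome -0.29.

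The 36 genes held 104 transcripts, of which 98 were tested and 0 were called by edgeR after adjustment, beside 0.148% of 30403 transcripts. DESeq2 called 12 of the 98, beside 14.4% of all. By edgeR, 18.5% of all transcripts had an unadjusted p under 0.05, as did 17 of the 98 (17.3%). For GABARAPL1, GABARAP, PIK3R4, ATG3 and CALCOCO2, 1 transcript carried at least 92.8% of the gene's TPM in each library, so its values were nearly those of the gene. ATG16L1 was divided between isoforms. Its transcript NM_030803 made up 54.8% and 54.7% of the gene's TPM in PANC-1 and 67.8% and 64.7% in PZT-2, and its normalised counts rose from 583 and 592 to 865 and 817 by DESeq2 (adjusted p = 2.2e-05) but not by edgeR (0.52, adjusted p = 0.0862). The second transcript, NM_017974, stood at 454 and 334 against 348 and 309. ATG7 was carried by the shorter NM_001349238, at 58.6% to 66.2% of its TPM, at 0.06 on the log2 scale (edgeR adjusted p = 0.831). The transcript NM_006395 of ATG7 stood at 24.7 and 27.2 in PANC-1 and 135 and 107 in PZT-2 (2.21, adjusted p = 0.0978 by edgeR and 2.4e-05 by DESeq2). Estimated counts of isoforms that share most of their sequence are uncertain, since reads are divided among them by a model.

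The E-box CACGTG and its extended form TCACGTGA, which contains it, are bound by TFEB and its relatives, transcription factors of lysosome and autophagy genes. Both were searched on both strands from 250 bases before to 50 bases after the transcription start of RefSeq promoters (GRCh38.p14), which were found for 32 of the 36 genes. CACGTG was present in 2 of the 32 (6.25%), beside 9.34% of the 16117 promoters of tested genes and 7.26% of all 35116 promoters. TCACGTGA was present in 1 (3.12%), beside 1.61% and 0.980%. The 32 were counted once per gene and the background per promoter, so these shares differ in unit. The matches in ATG3, which rose, and ATG14, which did not pass the test, are shown with the E-box in capitals because they are the only ones. Those of ATG3 lie on the minus strand at chr3:112561966-112561989 and chr3:112561943-112561966, the latter with TCACGTGA, and that of ATG14 on the minus strand at chr14:55411837-55411860.
ATG3, upstream of the start: ttctcacgtCACGTGccgggagag
ATG3, downstream of the start: gtctagtgtCACGTGaggccccgg
ATG14, upstream of the start: acaaaatccCACGTGactggctct
No match to either motif was found for GABARAPL1, and whether its promoter was among the 32 is not given here. TFEB itself stood at 86.6 and 128 normalised counts in PANC-1 and 98.6 and 111 in PZT-2 (-0.05 on the log2 scale, adjusted p = 0.896), and TFE3 had 0.12 (adjusted p = 0.318).

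Other genes of the pathway were counted from 5 lists. Of 117 listed genes 111 were tested, and 15 were higher and 18 lower, which is 29.7% beside the 28.4% of all genes. The counts were 3 higher and 8 lower of 33 genes of nutrient sensing by mTORC1 and AMPK, 6 higher and 1 lower of 21 genes of autophagosome and lysosome fusion, 2 higher and 3 lower of 18 further core genes, 1 higher and 4 lower of 18 transcription regulators, and 3 higher and 2 lower of 21 receptors for organelles. The medians of the log2 fold changes lay between -0.04 and 0.11 in all 5 lists.

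In nutrient sensing, RRAGD, a Rag GTPase that brings mTORC1 to the lysosome, fell from 390 and 344 normalised counts in PANC-1 to 46.3 and 27.7 in PZT-2, a change of -3.31 ± 0.211 on the log2 scale (adjusted p = 0.000301). It was the largest change among the genes named from these lists, and both PZT-2 libraries were far below both PANC-1 libraries. Its relative RRAGC rose by 0.33 (adjusted p = 0.0115). LAMTOR1, which anchors the Rag GTPases to the lysosome, fell from 2081 and 1970 to 1235 and 1374 (-0.63, adjusted p = 0.00192). MLST8, a subunit of mTOR complexes, fell from 1669 and 1647 to 1171 and 1225 (-0.47, adjusted p = 0.00272). FNIP2, counted above among the transcription regulators, is a partner of folliculin, which acts on RRAGC and RRAGD. FNIP2 fell from 248 and 298 to 145 and 127 (-1.01, adjusted p = 0.00385). In the other direction, PRKAB2, a regulatory subunit of AMPK, rose from 254 and 224 to 459 and 473 (0.97, adjusted p = 0.00131).

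In the later steps, RAB7A, the small GTPase of late endosomes and of fusion with the lysosome, rose from 4311 and 4209 normalised counts to 6669 and 7028 (0.68, adjusted p = 0.000518). EPG5, a tether for fusion, fell by 0.52. RUBCN, which encodes Rubicon, an inhibitor of the UVRAG complex, rose from 774 and 705 to 1220 and 1191 (0.71, adjusted p = 0.00128). RAB7A, RUBCN and TEX264, a receptor of the endoplasmic reticulum that rose by 0.30, are on chromosome 3. RUBCN, RRAGD, LAMTOR1, MLST8, FNIP2, RAB7A and EPG5 were called in each of 14 alternatives. Among the remaining genes named by the rule, WDR45B (0.31), FOXO3 (0.37), STBD1 (0.64) and BNIP3 (0.32) were higher. PIK3C2A (-0.57), WDFY3 (-0.40), EI24 (-0.22), TP53INP2 (-0.82), NFE2L2 (-0.36), WDR81 (-0.43) and ATL3 (-0.25) were lower.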

How the data were processed

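RNA-seq was measured in 4 libraries, 2 of PANC-1 and 2 of PZT-2, grouped by the cell line named in their labels. Per the labels, paired reads of 76 bases came from a stranded mRNA kit on a NextSeq 500. Trim Galore 0.4.1 was used by the authors for trimming, kallisto 0.43.0 for quantifying RefSeq transcripts and sleuth 0.29.0 for testing. hg19 is listed in the submitters' processing notes with no role. The deposited table holds estimated counts and TPM per transcript and library. The deposited TPM signal is scaled and its sums differ between libraries, so it was used for levels per length and as an alternative. A second deposited table pairs transcripts with symbols, and its p-values, q-values and effects, which are the authors' own comparison, were not used. No column belonged to other samples.

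The deposited estimated counts were not whole, since each library had been multiplied by a factor (1.16, 0.935, 1.03 and 1.01). Once it was undone, 49.6% to 51.0% of values between 0.5 and 30 were whole within 0.01, beside at most 2.52% before, and counts were then summed per gene and rounded. Of 31077 transcripts, 27049 were named by the table, 3925 through their accession in RefSeq (GRCh38.p14) and 103 stayed unnamed (0.0466% of counts). Chromosomes, neighbours and promoter windows came from RefSeq.

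Genes and transcripts with at least 5 counts in at least 2 libraries were tested with edgeR 4.0.16 in R 4.3.3 (TMM, quasi-likelihood), and calls were made at 0.05 after Benjamini-Hochberg adjustment over all genes or transcripts. Normalised counts put each library's counts on the scale of an average effective library size. The script was also run on simulated counts whose spread followed the trend fitted to these data. The outcome is not given here, and that setting does not cover genes with wide gaps between replicates. Totals of 12861114 to 15717657 counts per library set the counting precision. DESeq2 1.42.0 and limma 3.58.1 served as alternatives. TMM scaling centres the bulk of genes, so fold changes are relative to it.

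The members, the lists and the tests were chosen with earlier results of these data known. All members are reported. From each related list, at most 3 genes in each direction were named, by size of the log2 fold change among called genes with a mean normalised count of at least 100, and H2AFZ and H2AFV were named as checks, with GAPDH (-0.18, adjusted p = 0.0244). MAP1LC3B2, SESN2, DDIT4, ATF4, DDIT3, XBP1, TFEB and TFE3 lie outside this rule and were named after their values were seen. Results for some genes of the lists are not reported here. Of the related lists ATG9B, MAP1LC3C, RUBCNL, BECN2 and TFEC had no value.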

Additional observations from a re-analysis of the deposited data

How the results depend on the processing

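With DESeq2, 4 autophagy genes were higher and 2 lower, and with the most abundant transcript alone 4 were higher and 0 lower (PIK3R4, ATG3, ATG16L1 and GABARAPL1). That last setting called 2127 genes in all beside 4288, and 15 genes of the related lists beside 33. DESeq2 called 12 transcripts of the autophagy genes and a minimum of 10 counts in all 4 libraries 2, beside 0. With 1 library left out in turn, the calls ranged from 1999 to 4599 over all genes, from 2 to 8 for autophagy genes that were higher, from 0 to 5 for those lower and from 13 to 43 for the related lists, and were 0 for transcripts. The lowest counts came without PZT-2 replicate 1 or 2, and the most lower autophagy genes without PANC-1 replicate 2. Such a fit takes the spread of the line with 1 library from the other line. PIK3R4 and GABARAPL1 were called in all 15 alternatives, ATG3 in 13, ATG16L1, GABARAP and CALCOCO2 in 12, MAP1LC3A in 10, ATG7 in 9 and TAX1BP1 in 7.

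Log2 fold changes that changed sign all belonged to genes not called in the main analysis. With the most abundant transcript alone they were -0.070 for BECN1, 0.20 for AMBRA1, -0.18 for WIPI1, -0.20 for ATG4D and -0.0024 for OPTN. For ATG101 limma-trend on log2(TPM + 1) and log2(TPM + 0.1) gave -0.0095 and -0.0096. With 1 library left out in turn the values ran from -0.061 to 0.61 for ULK1, from -0.21 to 0.17 for ATG13, from -0.040 to 0.059 for ATG101, from -0.26 to 0.083 for AMBRA1, from -0.043 to 0.13 for ATG2A, from -0.052 to 0.00027 for WIPI2, from -0.085 to 0.19 for ATG4D, from -0.37 to 0.31 for MAP1LC3B and from -0.27 to 0.0084 for SQSTM1. The sign turned without PANC-1 replicate 1 for ATG13, AMBRA1, MAP1LC3B and SQSTM1, without PANC-1 replicate 2 for ULK1, ATG101, ATG2A and ATG4D, without PZT-2 replicate 1 for ATG13, WIPI2 and ATG4D, and without PZT-2 replicate 2 for ATG101. The cause was not tested, except that the deposited symbols, an alternative added after seeing the data, name only 1 of 12 transcripts of ATG13 (0.38).

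The labels do not say whether the replicate numbers pair the samples. The deviations of same-numbered libraries had a correlation of -0.02, which cannot show whether they were paired. With the replicate number as a block, 3757 genes were called, with 7 autophagy genes higher, 2 lower, 26 genes of the related lists and 0 transcripts. Counts were lowest for ATG4C and ATG2B, and what depth limits was not tested.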
